A study of Mus musculus with 8 samples.

Results

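Immunoglobulin genes give the chains of antibodies, and their transcripts were followed here in the left ventricle of mice given a high-fat diet plus L-NAME and of mice on normal chow. The members were all rows of the count table whose gene name marks a variable, joining, diversity or constant segment of the heavy, kappa or lambda chain, or the J chain, with at least 1 count in any library. This gave 50 of the 22403 rows with a count, out of 41096 rows in all. They were 11 constant segments, 3 heavy joining segments, 35 variable segments (18 heavy and 17 kappa) and Jchain, with 0 lambda variable segments and 0 diversity segments. Gene names came from the authors' deposited table, which does not list the 651 rows with a single count, so every member had more than 1 count.

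RNA came from 8 mice that were 12 weeks old when the feeding began and were fed for 9 weeks. The HFD-LNAME group held 4 mice given the high-fat diet together with L-NAME, which blocks nitric oxide synthases, at 0.5% according to the series' design text. The Normal Chow group held the other 4 mice. The labels write the strain of all of them as C57BL/5NJ and give no sex, Nnt genotype or batch for any library, although the series' design text describes cohorts of both sexes with intact or deleted Nnt, a mitochondrial transhydrogenase gene.

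An antibody pairs heavy with light chains. Each developing B cell joins a variable, a joining and, in the heavy chain, a diversity segment, so that each clone of B cells carries its own variable segments, and the joined exon is spliced to a constant segment. The heavy constant segment sets the isotype: Ighm and Ighd serve IgM and IgD of naive B cells, while Ighg and Igha segments are used after class switching, and plasma cells secrete antibody in large amounts. The adult mouse heart is known to hold resident B cells, most of them near or within its small vessels.

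Total counts were 31522074 to 41047658 in HFD-LNAME libraries and 41852705 to 52053633 in Normal Chow libraries. The ventricular light chain Myl2 stood at 4751 to 7550 CPM (counts per 1000000 of the TMM-scaled total) with HFD-LNAME and at 6532 to 7545 CPM on Normal Chow. The atrial light chain Myl7 stood above 200 CPM in 5 libraries labelled left ventricle, namely HFD-LNAME 2, 3 and 4 and Normal Chow 1 and 3. Plin1, which coats the fat droplet of adipocytes, was highest in HFD-LNAME 2 and 3, at 12.0 and 8.73 CPM, against 1.60 and 2.57 CPM in HFD-LNAME 1 and 4 and 0.443 to 2.12 CPM on Normal Chow. HFD-LNAME 3 had the lowest total count and stood apart in the immunoglobulin rows: it held 60.2% of all 7094 counts of the members and 74.4% of those of its group. Results are therefore given with and without it.

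Immunoglobulin transcripts made up a very small part of each library. The 50 members together took 0.00113%, 0.00169%, 0.0136% and 0.000976% of the counts of HFD-LNAME libraries 1 to 4, and 0.000863%, 0.000858%, 0.000528% and 0.000478% of those of Normal Chow libraries 1 to 4. Their summed level was 11.8, 16.3, 129.5 and 10.0 CPM with HFD-LNAME, against 8.44, 8.58, 5.29 and 4.93 CPM on Normal Chow. Every HFD-LNAME library thus lay above every Normal Chow library, by little at the edge, with HFD-LNAME 3 far above the rest. This separation rested on 1 row. The constant segment Ighg2c gave 3.22 of the 10.0 CPM of HFD-LNAME 4, which without it would lie below Normal Chow 1 and 2. The mean was 41.9 ± 58.5 CPM with HFD-LNAME and 6.81 ± 1.97 CPM on Normal Chow (SD, n = 4 each), and without HFD-LNAME 3 the HFD-LNAME mean was 12.7 ± 3.22 CPM (SD, n = 3). No test was run on sums. In bulk tissue, more cells of a type and more RNA per cell cannot be told apart.

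Between 7 and 40 members had a count in a given library: 8, 17, 40 and 8 in HFD-LNAME libraries 1 to 4, and 12, 7, 11 and 7 in Normal Chow libraries 1 to 4. Only Ighm, Igkc and Ighd had a count in every library, and 31 members had counts in HFD-LNAME libraries alone, 4 in Normal Chow libraries alone and 15 in both groups. The mean CPM was higher with HFD-LNAME for 43 of the 50 members (86.0%) and lower for 7, where 51.8% of all rows with a count had a higher mean. Most of this excess hung on 1 library. Without HFD-LNAME 3, 17 of the 50 members had the higher mean with HFD-LNAME, 9 had the lower, and 24 were at 0 in both groups. The 24 members at 0 had counts in HFD-LNAME 3 alone and could not be higher. Among all rows with a count, 50.3% had a higher mean without that library. Because of these 24 members, the 17 of 50 cannot be set directly against that share. The groups did not overlap for 1 member, Ighg2c, or 2.0% of the 50, beside 4.33% of all rows with a count in either direction and 2.08% higher, so the share of members was near the background.

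The low-count filter left 6 members in the fit over all 14875 rows tested, and 44 members were not tested. Ighg2c was called by edgeR's quasi-likelihood test, 1 of the 2 rows called in the whole table (0.0134% of rows in either direction, 0.00672% higher). Igkc, Jchain and Ighm had unadjusted p under 0.05 but did not pass the adjustment, and Igha and Ighd had unadjusted p over 0.05. The 4 members with an unadjusted p under 0.05, all higher, stood beside 9.56% of all rows tested in either direction and 5.02% higher. These 6 had passed a filter on low counts, so their number and their common direction say nothing about the other members. In the authors' deposited table all 50 members are listed, 43 of them with a positive log2 fold change, but only Ighm, Ighd and Igha have an adjusted p there, and 0 of these 3 is under 0.05 (1.1% of all rows with an adjusted p in that table).

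**Figure D1:**
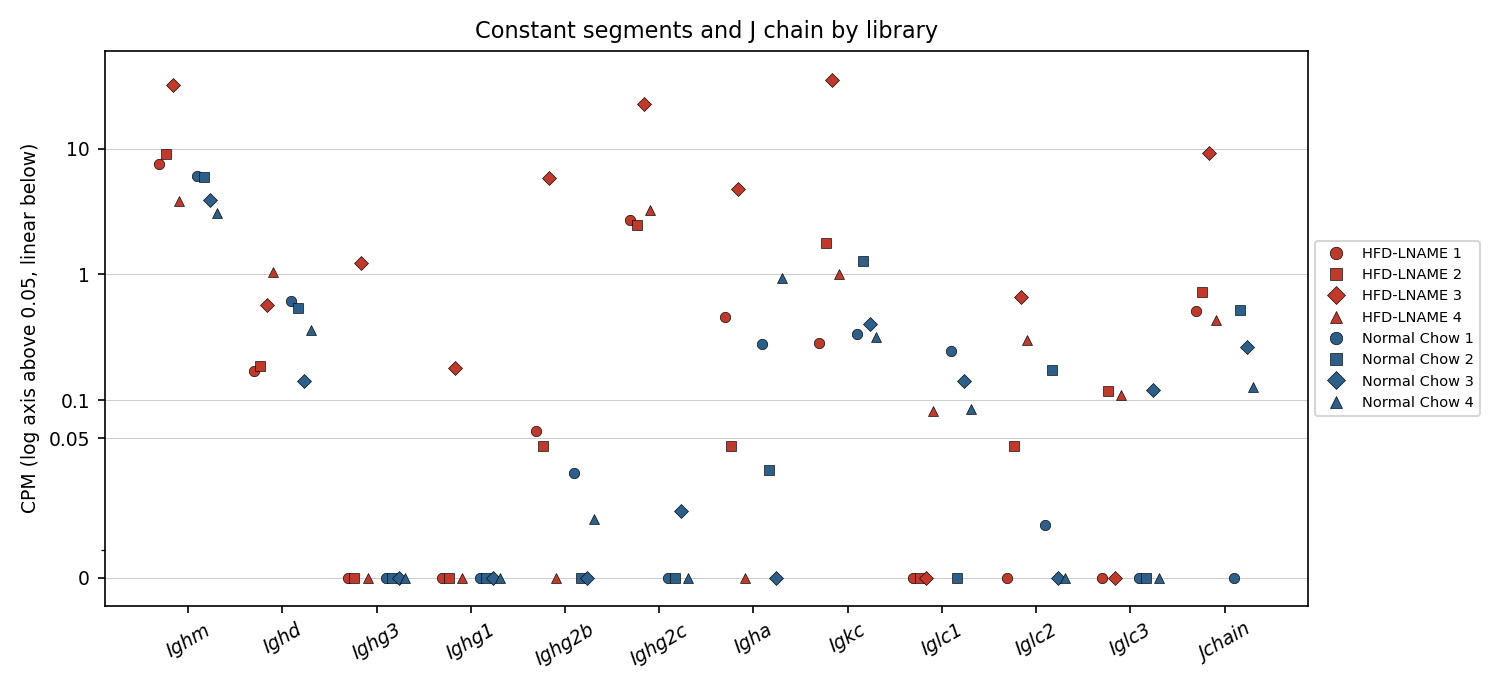
Level of each constant segment and of Jchain in CPM (log axis above 0.05 CPM, linear below) in the 4 HFD-LNAME libraries (red) and the 4 Normal Chow libraries (blue), 1 marker per library. Ighg2c is at 2.47 CPM or more in every HFD-LNAME library and at 0.0239 CPM or less in every Normal Chow library, and HFD-LNAME 3 (red diamond) is the highest point for Ighm, Igkc, Jchain, Igha and Ighg2b.

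Among the heavy chain isotypes, the IgG segment Ighg2c was the one that separated the groups. C57BL/6 mice carry Ighg2c where some other strains carry Ighg2a, and IgG2c binds activating Fc receptors and complement. It had 95, 105, 744 and 118 counts in HFD-LNAME libraries 1 to 4, against 0, 0, 1 and 0 counts in Normal Chow libraries 1 to 4. In CPM these were 2.72, 2.47, 22.5 and 3.22 with HFD-LNAME, against 0, 0, 0.0239 and 0 on Normal Chow. All 4 HFD-LNAME libraries lay above all 4 Normal Chow libraries, and HFD-LNAME 1, 2 and 4 stood close together. The log2 fold change was 9.90 ± 1.24 (SE; edgeR adjusted p = 0.0393, higher in 4 of 4 HFD-LNAME libraries). The SE was derived from this fitted value, which depends on the prior count because Normal Chow held 1 count of Ighg2c in all. Pooled over libraries, its rate was 1402 times that of Normal Chow (95% counting interval 251 to 55425), and without HFD-LNAME 3 it was 541 (96.4 to 21443). Such counting intervals, here and below, take reads as the units and leave out the spread between mice. HFD-LNAME 3 gave 70.1% of the HFD-LNAME counts of Ighg2c. Ighg2c passed the low-count filter through the HFD-LNAME libraries alone, so the separation of the groups was in part a condition of its being tested. Without HFD-LNAME 3 the adjusted p was 0.00729. It was above 0.05 when HFD-LNAME 2 or 4 or any Normal Chow library was left out (0.0556 to 0.199), with limma-voom (0.298) and in a robust edgeR fit chosen after seeing the data (0.145), and DESeq2 gave it no adjusted p. Of all rows tested in those settings, limma-voom called 0.0%, the robust fit 0.00672% and DESeq2 1.11%, and edgeR without the low-count filter called 0.152%. The authors' deposited table lists it at a log2 fold change of 10.27 ± 1.50 (SE), with no p-value.

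HFD-LNAME 3 held most counts of the other IgG segments. Ighg2b had 2, 2, 192 and 0 counts with HFD-LNAME and 2, 0, 0 and 1 counts on Normal Chow. Ighg3 and Ighg1 had 41 and 6 counts in HFD-LNAME 3 and 0 in the other 7 libraries. The pooled rate of Ighg2b was 86.2 times that of Normal Chow (95% counting interval 29.1 to 422), and without HFD-LNAME 3 this ratio was 2.27 (0.384 to 15.5), an interval that spans equal rates. The IgG segments together stood at 2.77, 2.52, 29.8 and 3.22 CPM with HFD-LNAME, against 0.0376, 0, 0.0239 and 0.0212 CPM on Normal Chow. Ighg2c made up 97.9%, 98.1%, 75.7% and 100% of the IgG counts of HFD-LNAME libraries 1 to 4.

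Ighg2c and Ighg2b lie side by side on chromosome 12 and are close copies of each other, which bears on how safely reads were given to one or the other. Their first constant domain exons, 291 bases each, are printed as the reference has them (GENCODE M21 transcripts, GRCm38, minus strand), with capitals at the 36 bases that differ.
Ighg2c: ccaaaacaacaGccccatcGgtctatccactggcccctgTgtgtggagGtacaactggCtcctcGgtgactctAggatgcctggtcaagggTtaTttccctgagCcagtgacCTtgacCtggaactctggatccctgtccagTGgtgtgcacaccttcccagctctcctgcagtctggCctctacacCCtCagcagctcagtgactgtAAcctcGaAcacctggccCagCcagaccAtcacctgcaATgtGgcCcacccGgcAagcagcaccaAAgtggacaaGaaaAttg
Ighg2b: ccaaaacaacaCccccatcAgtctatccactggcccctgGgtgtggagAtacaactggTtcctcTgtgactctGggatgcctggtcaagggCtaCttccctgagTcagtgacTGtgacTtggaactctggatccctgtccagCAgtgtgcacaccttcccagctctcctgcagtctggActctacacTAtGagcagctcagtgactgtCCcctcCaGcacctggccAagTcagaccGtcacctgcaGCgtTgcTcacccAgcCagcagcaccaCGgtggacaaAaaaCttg
The pair is 87.6% identical in this exon, and the longest identical run is 34 bases. Of all 50-base stretches of the Ighg2c transcripts, 94.5% occurred in no other immunoglobulin gene, and for Ighg2b this was 95.9%. How the authors' counting treated reads that fit both is not stated in the sources at hand, and a small exchange of counts between the pair is possible. In HFD-LNAME 1, 2 and 4 the counts of Ighg2b were 2, 2 and 0 beside 95, 105 and 118 of Ighg2c.

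The isotype mix within a library does not depend on its depth, though its precision does. Shares are of raw counts and were not corrected for segment length (1326 bases for Ighg2c, 1886 for Ighm and 2668 for Igha). As a share of heavy constant counts, Ighg2c made up 24.8% (95% Clopper-Pearson interval 20.6 to 29.4), 20.9% (17.4 to 24.7), 33.7% (31.7 to 35.7) and 39.9% (34.2 to 45.7) in HFD-LNAME libraries 1 to 4. On Normal Chow it was 0 of 371, 0 of 339, 1 of 169 and 0 of 208 counts, with upper limits of 0.989%, 1.08%, 3.25% and 1.76%. The intervals of the groups did not overlap, and HFD-LNAME 3, which stood apart in amount, lay between HFD-LNAME 1 and 4 in this share. These intervals cover counting error only, since reads are not independent molecules.

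Ighm, the constant segment of IgM, led the raw heavy chain counts in every library, though per kilobase Ighg2c was above it in HFD-LNAME 3 and 4. It made up 68.9%, 76.7%, 47.5% and 47.3% of heavy constant counts with HFD-LNAME, against 86.5%, 91.2%, 95.9% and 70.2% on Normal Chow, so that Normal Chow 4 lay among the HFD-LNAME libraries. In level, Ighm was at 7.55, 9.08, 31.8 and 3.83 CPM with HFD-LNAME, against 6.03, 5.96, 3.87 and 3.09 CPM on Normal Chow. The groups overlapped, with HFD-LNAME 4 below 3 of the 4 Normal Chow libraries. The log2 fold change was 1.46 ± 0.53 (SE; edgeR adjusted p = 0.420, higher in 3 of 4 HFD-LNAME libraries than in any Normal Chow library), and without HFD-LNAME 3 it was 0.52.

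Ighd, which shares its primary transcript with Ighm in naive B cells, showed no separation. It had 0.171, 0.188, 0.576 and 1.04 CPM with HFD-LNAME and 0.620, 0.540, 0.143 and 0.360 CPM on Normal Chow (log2 fold change 0.24 ± 0.72, SE; edgeR adjusted p = 0.952). The value was -0.43 without HFD-LNAME 4 and -0.042 without Normal Chow 3. Igha, the segment of IgA, the main antibody of mucosal surfaces, varied from mouse to mouse in both groups. It had 16, 2, 157 and 0 counts with HFD-LNAME and 15, 2, 0 and 44 counts on Normal Chow. Its share of heavy constant counts reached 7.11% in HFD-LNAME 3 and 21.2% in Normal Chow 4. The log2 fold change was 2.05 ± 1.50 (SE; edgeR adjusted p = 0.709), and without HFD-LNAME 3 it was -0.90, in the other direction.

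The IgG and IgA segments, summed, made up 29.5%, 21.7%, 51.6% and 39.9% of heavy constant counts with HFD-LNAME. On Normal Chow they made up 4.58%, 0.590%, 0.592% and 21.6%. HFD-LNAME 2 and Normal Chow 4 were nearly equal in this sum. The summed counts of HFD-LNAME 2 were almost all Ighg2c, and those of Normal Chow 4 almost all Igha. The ranges of the groups came close to touching for this sum and lay well apart for Ighg2c alone. Whether the IgG and IgA counts came from class-switched transcripts was not tested. Beside 95, 105, 744 and 118 counts of Ighg2c, HFD-LNAME libraries 1 to 4 had 0, 69, 580 and 0 variable segment counts.

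**Figure D2:**
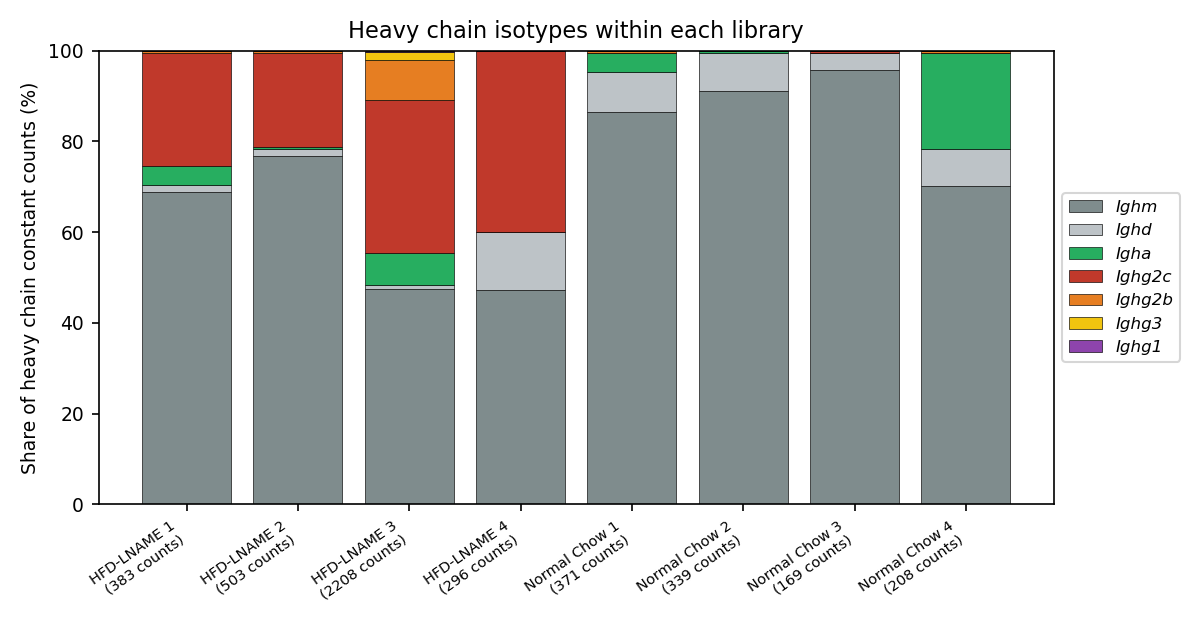
Share of each heavy chain isotype, in percent of the heavy constant counts of a library, as stacked bars with the 4 HFD-LNAME libraries left of the 4 Normal Chow libraries and the number of counts under each bar. Ighg2c takes 20.9% to 39.9% of the HFD-LNAME bars and at most 0.592% of the Normal Chow bars, and the Igha part of Normal Chow 4 is 21.2%.

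Light chains were led by Igkc, the single constant segment of the kappa chain, which most mouse antibodies use. Igkc had 10, 75, 1152 and 37 counts with HFD-LNAME, or 0.286, 1.76, 34.9 and 1.01 CPM, against 18, 66, 17 and 15 counts on Normal Chow, or 0.338, 1.27, 0.407 and 0.317 CPM. HFD-LNAME 1 was the lowest of all 8 libraries and HFD-LNAME 3 the highest, so the groups overlapped. The log2 fold change was 4.0 ± 1.26 (SE; edgeR adjusted p = 0.344), with 90.4% of the HFD-LNAME counts from HFD-LNAME 3, and without that library it was 0.80. The lambda constant segments were rare, with 0 to 22 counts each in any library. Iglc1 had 0, 0, 0 and 3 counts with HFD-LNAME and 13, 0, 6 and 4 on Normal Chow. Iglc2 had 0, 2, 22 and 11 counts with HFD-LNAME and 1, 9, 0 and 0 on Normal Chow, and Iglc3 had 0, 5, 0 and 4 counts with HFD-LNAME and 0, 0, 5 and 0 on Normal Chow. Kappa made up 100%, 91.5%, 98.1% and 67.3% of light constant counts with HFD-LNAME and 56.3%, 88.0%, 60.7% and 78.9% on Normal Chow, and these ranges overlapped.

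Levels of different segments were compared per kilobase of merged exons (GENCODE M21). Light constant segments stood at 18.8, 155, 2201 and 103 counts per kilobase with HFD-LNAME, against 64.1, 139, 56.2 and 37.0 on Normal Chow. Heavy constant segments stood at 222, 290, 1276 and 183 counts per kilobase with HFD-LNAME, against 194, 179, 89.8 and 103 on Normal Chow. The ratio of light to heavy was 0.0849, 0.536, 1.72 and 0.562 with HFD-LNAME and 0.331, 0.774, 0.626 and 0.358 on Normal Chow. Light chains exceeded heavy chains in HFD-LNAME 3 alone, and HFD-LNAME 1 had the lowest ratio of all, so the groups overlapped at both ends. The leading constant segment per kilobase was Igkc in HFD-LNAME 3 (2165 counts per kilobase), Ighg2c in HFD-LNAME 4 (89.0) and Ighm in the other 6 libraries. Among the heavy segments of HFD-LNAME 3, Ighg2c stood just above Ighm (561 against 556 counts per kilobase).

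**Figure D3:**
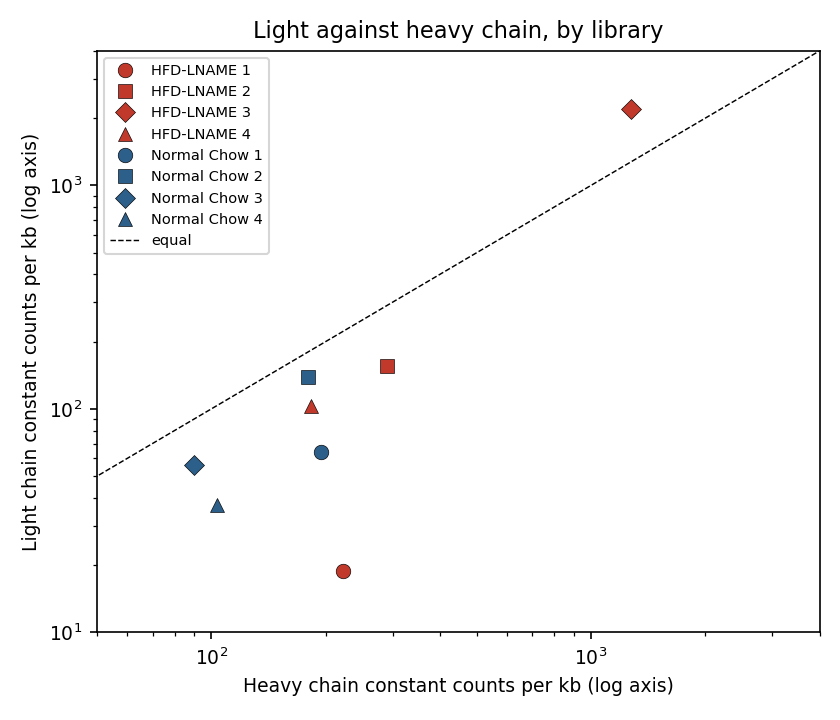
Light constant counts per kilobase against heavy constant counts per kilobase, 1 marker per library on log axes, with HFD-LNAME in red and Normal Chow in blue and a line where the 2 are equal. HFD-LNAME 3 lies above the line at a ratio of 1.72, and the other 7 libraries lie below it at ratios from 0.0849 to 0.774.

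Jchain, which links IgM and IgA into polymers and is made in quantity by plasma cells, had 18, 31, 304 and 16 counts with HFD-LNAME, against 0, 27, 11 and 6 on Normal Chow. In CPM these were 0.514, 0.730, 9.21 and 0.437 with HFD-LNAME, against 0, 0.520, 0.263 and 0.127 on Normal Chow. Normal Chow 2 lay above HFD-LNAME 1 and 4, so the groups overlapped. The log2 fold change was 3.56 ± 1.18 (SE; edgeR adjusted p = 0.368), and without HFD-LNAME 3 it was 1.29. The 3 joining segments, Ighj1, Ighj2 and Ighj4, had at most 9 counts in any library.

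Variable segments differed widely between mice. They had 0, 69, 580 and 0 counts in HFD-LNAME libraries 1 to 4, against 35, 4, 12 and 0 in Normal Chow libraries 1 to 4. The number of segments with a count was 0, 7, 28 and 0 with HFD-LNAME and 3, 1, 3 and 0 on Normal Chow. HFD-LNAME 3 held 82.9% of all variable counts, and the groups overlapped, as 2 HFD-LNAME libraries and 1 Normal Chow library had none. A count of 0 allows up to 0.0857 CPM in HFD-LNAME 1 and 0.0820 CPM in HFD-LNAME 4 for each segment, against 0.0635 CPM in Normal Chow 4. None of the 35 segments reached the fit over all rows, so no test was made of any.

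The segments of HFD-LNAME 3 were many but uneven. Its 580 counts came from 16 heavy and 12 kappa segments in 17 families, and the leading heavy segment, Ighv10-1, had 169 counts, or 29.1% of them (95% Clopper-Pearson interval 25.5 to 33.0). Among heavy variable counts Ighv10-1 took 53.3%, and the 3 leading segments together took 51.9% of all variable counts. Ighv10-1 was at 0 in the other 7 libraries. The leading kappa segment was Igkv6-32, with 89 counts or 33.8% of the kappa variable counts, also at 0 in the other 7 libraries. Then came Igkv4-91 with 43 counts, Igkv8-30 with 41, Ighv10-3 with 39, a kappa segment of family 14 with 34 and Ighv3-1 with 23. The effective number of segments, the exponential of the Shannon entropy, was 12.7, where 28 equally used segments would give 28.

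The 2 heavy segments of family 10 are shown because Ighv10-1 led HFD-LNAME 3, Ighv10-3 was found in 3 libraries, and they resemble each other. The first 300 of the 313 bases of exon 2, which codes for most of the variable domain, are given as the germline reference has them (GENCODE M21 transcripts, GRCm38, chromosome 12, minus strand), with capitals at the 9 bases that differ.
Ighv10-1: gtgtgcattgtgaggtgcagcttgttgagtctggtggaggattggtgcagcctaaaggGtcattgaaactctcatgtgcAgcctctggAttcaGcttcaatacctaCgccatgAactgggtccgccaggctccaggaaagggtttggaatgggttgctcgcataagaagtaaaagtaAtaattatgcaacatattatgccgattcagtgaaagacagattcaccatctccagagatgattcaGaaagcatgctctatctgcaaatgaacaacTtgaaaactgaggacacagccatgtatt
Ighv10-3: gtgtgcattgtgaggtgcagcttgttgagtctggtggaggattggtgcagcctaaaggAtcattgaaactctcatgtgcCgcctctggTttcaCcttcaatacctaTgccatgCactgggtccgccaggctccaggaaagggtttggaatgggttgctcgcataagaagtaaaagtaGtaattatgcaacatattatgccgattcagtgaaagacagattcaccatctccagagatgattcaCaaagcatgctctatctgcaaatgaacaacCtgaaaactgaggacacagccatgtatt
They are 97.0% identical over these bases, with a longest identical run of 64 bases. Of the 50-base stretches of Ighv10-1, 77.7% occurred in no other immunoglobulin gene, and for Ighv10-3 this was 79.0%. Rearranged segments can also carry somatic mutations, so a reading of the 169 counts of Ighv10-1 apart from the 39 of Ighv10-3 in HFD-LNAME 3 is uncertain. The same holds for many segments: 8 of the 35 had no 50-base stretch in common with another immunoglobulin gene, the median share of such stretches was 80.9% and the lowest 47.7%. Igkv6-32 was fully distinct by this measure, at 100%, and Igkv4-91 at 94.8%.

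HFD-LNAME 2 was smaller and differently led. Its 69 counts came from 7 segments in 7 families, with Igkv4-91 first at 22 counts, or 31.9% (95% Clopper-Pearson interval 21.2 to 44.2), and Ighv10-3 second at 16. The effective number was 5.86. Drawn down to the same 69 counts, HFD-LNAME 3 would be expected to show 17.7 segments, still more than the 7 of HFD-LNAME 2. On Normal Chow, library 1 had 17 counts each of Ighv7-2 and Igkv3-4 and 1 of Ighv10-3, library 2 had 4 counts of Igkv5-39, and library 3 had 5 each of Igkv3-9 and Igkv8-27 and 2 of Igkv10-94, a segment named after its values were seen. With so few counts, the makeup of the Normal Chow libraries could not be described further.

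Mice shared few variable segments. Of the 35 segments, 29 had counts in exactly 1 library, 5 in exactly 2 and 1, Ighv10-3, in 3. Counted by group, 28 were seen in HFD-LNAME libraries alone, 4 in Normal Chow libraries alone and 3 in both, and 22 were seen in HFD-LNAME 3 alone. HFD-LNAME 2 and 3 shared 4 segments, which were 57.1% of the 7 of HFD-LNAME 2 and 14.3% of the 28 of HFD-LNAME 3. These were Igkv4-91, Ighv10-3 and, named after their values were seen, Ighv9-3 and Igkv12-44. In all, 13 segments had 5 or fewer counts over the 8 libraries. GENCODE M21 lists 113 functional heavy and 100 functional kappa variable genes, of which 18 and 17 appeared here, and 0 of the 35 is a pseudogene there.

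**Figure D4:**
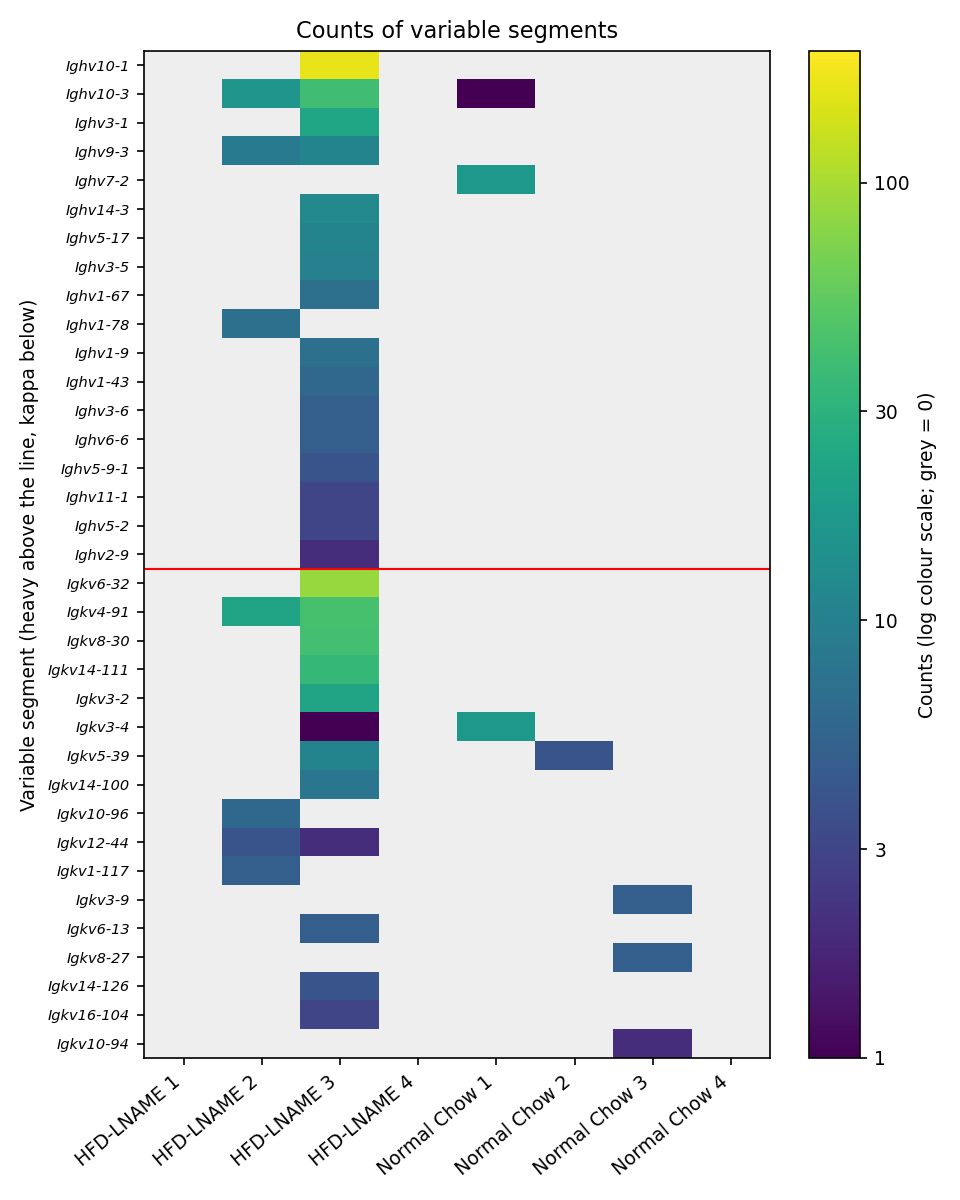
Counts of each variable segment in each library as a grid, with the 4 HFD-LNAME columns left of the 4 Normal Chow columns, colours from dark to bright for rising counts on a log scale and grey cells for 0. Heavy segments are above the red line and kappa segments below it. The HFD-LNAME 3 column holds 28 of the 35 segments, led by Ighv10-1 at 169 counts, and the HFD-LNAME 1, HFD-LNAME 4 and Normal Chow 4 columns are empty.

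Defining markers of the cells that make antibody overlapped between the groups, with the exception of the few counts of Slamf7. The B cell list, 15 genes with 10 tested, summed to 22.1, 23.3, 29.3 and 20.8 CPM with HFD-LNAME, against 16.1, 23.5, 15.8 and 16.1 CPM on Normal Chow. Most of this sum was Ebf1, which encodes an early B cell factor that adipose and stromal cells also express (18.9 ± 1.07 CPM with HFD-LNAME and 14.7 ± 2.79 CPM on Normal Chow, SD, n = 4 each; log2 fold change 0.36 ± 0.13, SE; edgeR adjusted p = 0.427). The surface markers that define B cells were scarce. Ms4a1, which encodes CD20, had 0, 0.424, 1.21 and 0 CPM with HFD-LNAME and 0.301, 0.347, 0.215 and 0 CPM on Normal Chow. Cd79a, a signalling chain of the receptor, had 0.0286, 0.259, 1.21 and 0.492 CPM with HFD-LNAME and 0.865, 0.752, 0.0239 and 0 CPM on Normal Chow. HFD-LNAME 3 was the highest library for Ms4a1 and Cd79a, Ms4a1 was at 0 in HFD-LNAME 1 and 4 and Normal Chow 4, and the groups overlapped for both genes.

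The plasma cell list, 15 genes with 12 tested, summed to 167, 181, 172 and 165 CPM with HFD-LNAME, against 174, 167, 172 and 150 CPM on Normal Chow, and none of the 12 (0) reached an unadjusted p under 0.05. Most of this sum was Xbp1 and Txndc5, the latter named after its values were seen. Their means were 53.2 and 56.5 CPM with HFD-LNAME and 53.4 and 56.5 CPM on Normal Chow, so the sum says little about the scarcer markers. Mzb1, a chaperone of antibody assembly, had 0.486, 0.894, 2.79 and 1.31 CPM with HFD-LNAME and 0.132, 1.20, 0.813 and 0.169 CPM on Normal Chow, highest in HFD-LNAME 3 (log2 fold change 1.24 ± 0.76, SE; edgeR adjusted p = 0.642). Xbp1, a transcription factor of secretory cells that heart tissue also expresses, had a log2 fold change of -0.0045, and Sdc1, which encodes CD138, one of 0.17 ± 0.24 (SE; edgeR adjusted p = 0.872). Tnfrsf17, the receptor BCMA of plasma cells, had 12, 2, 11 and 6 counts with HFD-LNAME and 9, 6, 0 and 8 on Normal Chow. Slamf7, a surface protein of plasma cells and of other leukocytes that was named after its values were seen, had 7, 3, 4 and 8 counts with HFD-LNAME and 0 in each Normal Chow library, too few to be tested. The part that the number of B cells or plasma cells plays in the Ighg2c difference was not tested.

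**Figure D5:**
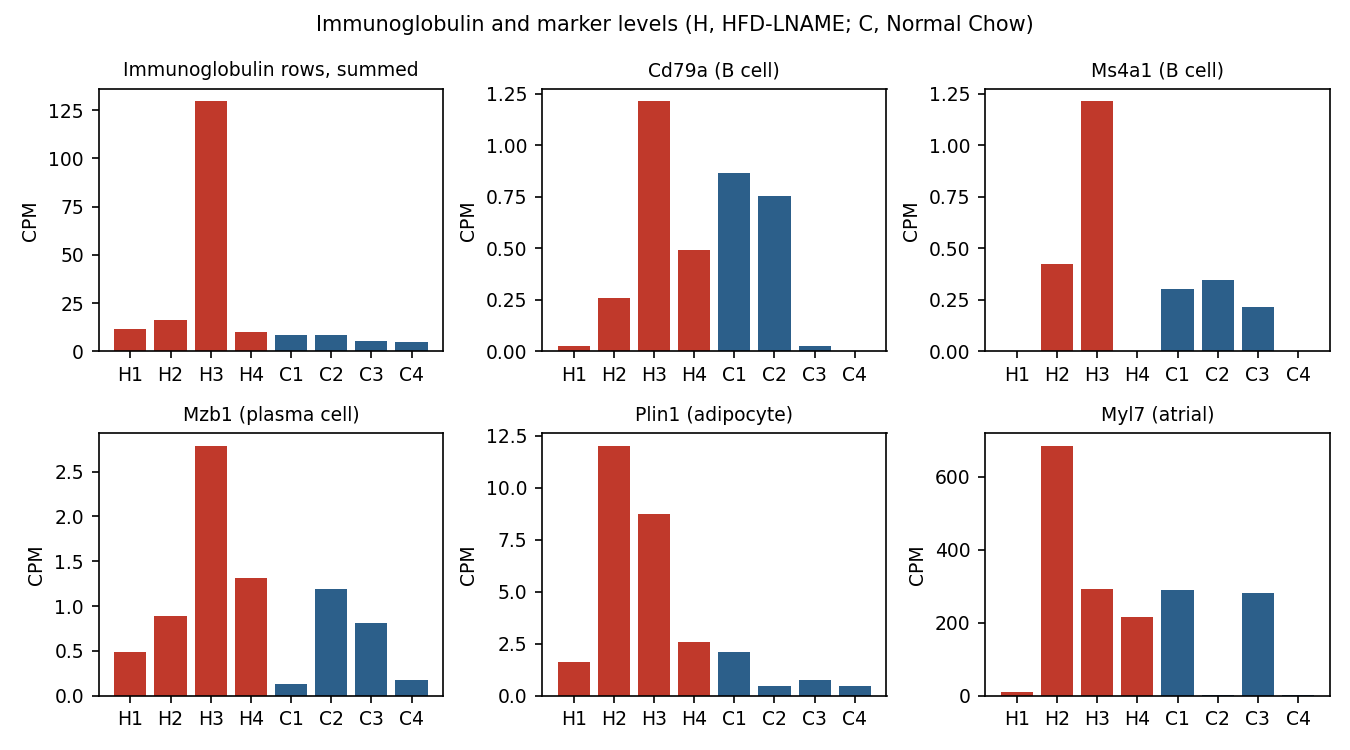
Level in CPM, as bars from 0, of all immunoglobulin rows together, the B cell markers Cd79a and Ms4a1, the plasma cell marker Mzb1, the adipocyte marker Plin1 and the atrial marker Myl7 in each library, with HFD-LNAME 1 to 4 (H1 to H4, red) left of Normal Chow 1 to 4 (C1 to C4, blue). H3 is highest for the immunoglobulin sum, Cd79a, Ms4a1 and Mzb1, and H2 is highest for Plin1 and Myl7.

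Markers of other tissues also differed between libraries. The adipocyte list, 9 genes with 7 tested, had a median log2 fold change of 2.71, with 6 members at an unadjusted p under 0.05 (Adipoq, Plin1, Cidea, Cidec, Lep and Cfd, at log2 fold changes from 0.45 to 3.37), and summed to 804, 637, 484 and 630 CPM with HFD-LNAME, against 549, 602, 487 and 519 CPM on Normal Chow. Most of this sum was Fabp4, a fatty acid binding protein gene that endothelial cells also express, at 752, 548, 414 and 582 CPM with HFD-LNAME and 519, 569, 449 and 489 CPM on Normal Chow (log2 fold change 0.18 ± 0.15, SE; edgeR adjusted p = 0.752). Cfd, which encodes the adipocyte product adipsin, had 2.77, 8.85, 8.46 and 2.16 CPM with HFD-LNAME, against 1.56, 0.0578, 0.287 and 0.212 CPM on Normal Chow (log2 fold change 3.37 ± 0.81, SE; edgeR adjusted p = 0.233). Cidea had 43.8, 42.2, 37.5 and 40.7 CPM with HFD-LNAME, against 23.8, 31.5, 36.0 and 28.7 CPM on Normal Chow. For Cfd and Cidea every HFD-LNAME library lay above every Normal Chow library, which held for 2.08% of all rows with a count. The groups overlapped for the other members of the adipocyte list. Ucp1, the uncoupling protein of brown fat, had 0, 487, 166 and 0 counts with HFD-LNAME and 0, 2, 14 and 0 on Normal Chow. The HFD-LNAME libraries with Ucp1 counts, 2 and 3, were those with variable segment counts. Normal Chow 2 and 3 also had both, with 4 and 12 variable segment counts, and Normal Chow 4 had neither. Normal Chow 1 had variable segment counts and 0 of Ucp1.

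The T and NK cell list, 11 genes with 2 tested, summed to 0.857, 2.09, 2.79 and 1.42 CPM with HFD-LNAME, against 1.28, 1.52, 1.53 and 1.04 CPM on Normal Chow. Its members did not move together: the T cell receptor subunit Cd3e had 1, 9, 17 and 4 counts with HFD-LNAME and 0, 4, 0 and 0 on Normal Chow, while Cd8a, a coreceptor of cytotoxic T cells named after its values were seen, had 0, 0, 1 and 0 counts with HFD-LNAME and 9, 5, 1 and 0 on Normal Chow. The tested members, also named after their values were seen, were Cd4 at a log2 fold change of 0.79 ± 0.58 and Cd2 at -0.66 ± 1.01 (SE; edgeR adjusted p = 0.708 and 0.884). The atrial list of 4 genes summed to 165, 4112, 1624 and 1018 CPM with HFD-LNAME, against 2060, 149, 2032 and 313 CPM on Normal Chow. Myl7 was at 10.2, 685, 293 and 216 CPM with HFD-LNAME, against 290, 0.713, 282 and 1.02 CPM on Normal Chow. The parts of adipose and atrial tissue in the values of Ighg2c and of the other members were not tested.

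None of the genes that act around the antibody passed the test. Of those for recombination, class switching and the germinal centre, 10 of 15 were tested, with 0 at an unadjusted p under 0.05 and a median log2 fold change of -0.04, against 0.0024 over all rows tested. The B cell receptor signalling list, 17 genes with 13 tested, had a median of 0.10. In it the kinase gene Syk had a log2 fold change of 0.28 ± 0.12 (SE; edgeR unadjusted p = 0.0451, adjusted p = 0.510), and Cd81, a tetraspanin gene that most cells express, had -0.16 ± 0.07 (SE; edgeR unadjusted p = 0.0388, adjusted p = 0.492). Fc receptors and antibody transporters, 8 of 10 tested, had a median of 0.01, and classical complement genes, 6 of 9 tested, had a median of -0.0022, and in both 0 members had an unadjusted p under 0.05.

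Signals for B cell survival and homing, 10 of 22 genes tested, had a median log2 fold change of -0.08. The integrin alpha 4 gene Itga4, which leukocytes use to leave vessels, had 3.04 ± 1.05 CPM with HFD-LNAME and 1.799 ± 0.348 CPM on Normal Chow (SD, n = 4 each; log2 fold change 0.76 ± 0.31, SE; edgeR unadjusted p = 0.0344, adjusted p = 0.479), and it was the single member with an unadjusted p under 0.05. Of the thymus list, 1 of 8 genes was tested: Arpp21, which is also expressed in other tissues, at -0.96 ± 0.35 (SE; edgeR unadjusted p = 0.0177, adjusted p = 0.418). The lymph node and stroma list had 1 of 7 genes tested and the erythrocyte list 1 of 5, with 0 at an unadjusted p under 0.05. Over all these lists edgeR and limma-voom called 0 members, and DESeq2 called 1, the fat droplet gene Cidec of the adipocyte list, higher.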

How the data were processed

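RNA-seq counts of 8 left ventricle libraries, 4 per group, were analysed, each matched to its column by the mouse number in its title, so each library is its own mouse. The values used are raw counts per gene as the authors deposited them. The submitters' processing notes list STAR 2.6, Trim Galore 0.4.0, bcl2fastq 1.8.4 and DESeq2 1.22.1. They also name a human build, but the rows carry C57BL/6NJ mouse identifiers, so no coordinates are printed. How reads were counted, and with which strand setting, is not given in the sources used here, and reads of overlapping genes cannot be told apart by strand. A second table that the authors deposited gives, per gene, a log2 fold change, a test score and p-values. It also holds 8 columns of normalised values, which were left aside. Chromosomes, exon lengths and sequences came from GENCODE M21 (GRCm38) by symbol, where all 50 members matched.

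The main test was the quasi-likelihood test of edgeR 4.0.16 under R 4.3.3, with TMM factors (filterByExpr at a minimum count of 10, Benjamini-Hochberg adjustment over all rows, threshold 0.05, no covariate). Depth per library was 31522074 to 52053633 counts, and replicates of a group differed beyond sampling noise (chi-square per degree of freedom 22.2 to 54.7). Intervals are exact at 95%, and a count of 0 allows 3 counts. Alternatives were DESeq2 1.42.0, limma-voom (limma 3.58.1), other scalings, no low-count filter, leaving out libraries, and, chosen after seeing the data, a robust edgeR fit. The steps were tested on simulated data.

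Members, lists and the rule for named genes were chosen with earlier results of these data known. That rule takes every constant segment, Jchain, members called or with an unadjusted p under 0.05, the 3 most abundant variable segments of each chain, the leading variable segment of each library, list genes with an unadjusted p under 0.05 and defining markers. Others are said to be named after their values were seen, and some genes that the rule names are not reported here.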

Additional observations from a re-analysis of the deposited data

Results flagged for a closer look

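In 27 of 58 groups of 4 libraries examined (29 values in both groups), the highest library stood so far from the nearest other that the gap passed Dixon's 95% critical value for groups of that size. Chance alone marks about 1 group in 20, and the values are sums and members of the same libraries, so these are not independent. Rows with counts in a single library pass by construction.

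HFD-LNAME 3 accounted for 17 of them. Its levels were 129.5 CPM for all members together, 102.5 CPM for constant segments, 17.6 CPM for variable segments and 29.8 CPM for IgG segments. Among constant segments and Jchain these were Igkc at 34.9 CPM, Ighg2c at 22.5, Jchain at 9.21, Ighg2b at 5.82, Igha at 4.76, Ighg3 at 1.24 and Ighg1 at 0.182 CPM. Among variable segments they were Ighv10-1 at 5.12 CPM, Igkv6-32 at 2.70, Igkv8-30 at 1.24, Ighv3-1 at 0.697, Igkv5-39 at 0.333 and Igkv3-4 at 0.0303 CPM, the last a single count.

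In the other libraries the values were small. Iglc1 was at 0.0820 CPM in HFD-LNAME 4. Normal Chow 1 had Igkv3-4 at 0.320 CPM and Ighv10-3 at 0.0188 CPM. Normal Chow 2 had Igkc at 1.27 CPM, Iglc2 at 0.173, Igkv5-39 at 0.0771 and the summed B cell markers at 23.5 CPM. Normal Chow 3 had Ighg2c at 0.0239 CPM, Iglc3 at 0.120 and Igkv3-9 at 0.120 CPM.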

How the results depend on the processing

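The call of Ighg2c held with RLE size factors, with unscaled totals and without the low-count filter (edgeR adjusted p 0.0381, 0.0487 and 0.000154), and when HFD-LNAME 1 or 3 was left out (0.0471 and 0.00729). Its log2 fold change stayed between 8.35 and 11.37 in all 14 alternatives that gave one, and it passed in 5. The count of immunoglobulin rows called was 0 with DESeq2, which gave no adjusted p for Ighg2c, Igkc and Jchain, and 0 with limma-voom (1 of 6 with an unadjusted p under 0.05 in each), 0 without HFD-LNAME 2 and 3 (adjusted p of Ighg2c 0.0649), 0 with the robust edgeR fit (2 of 6), and 0 to 1 when single libraries were left out. Over the whole table, 2 calls became 34 without the low-count filter, 165 with DESeq2, 0 with limma-voom and 1 with the robust fit. An unadjusted p under 0.05 was reached by 1547 of 14875 rows with DESeq2, 1456 with limma-voom and 1403 with the robust fit. Without HFD-LNAME 2 and 3 there were 0 calls (1210 of 15710 rows with an unadjusted p under 0.05). When single libraries were left out there were 0 to 3 calls. The cause was not tested.

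The log2 ratio of summed immunoglobulin CPM was 2.62. It was 4.23 for variable segments only, 0.68 without HFD-LNAME 2 and 3, and 0.90 to 2.95 when single libraries were left out, lowest without HFD-LNAME 3. The effective number of segments in HFD-LNAME 3 was 7.53 as an inverse Simpson index. Igha changed direction without HFD-LNAME 3 (-0.90) and without HFD-LNAME 2 and 3 (-0.45), and Ighd did so with limma-voom (-0.043), without HFD-LNAME 4 (-0.43) and without Normal Chow 3 (-0.042). With single libraries left out Igha ranged from -0.90 to 3.54 and Ighd from -0.43 to 0.52. Ighm, Igkc and Jchain kept a positive log2 fold change in every alternative that gave one and passed in 0 of them. No paired analysis was possible because the replicate numbers follow accession order and pair no samples. The low-count filter left 44 of the 50 members untested. In the edgeR fit without that filter 16 of 50 had an unadjusted p under 0.05 and 1, Ighg2c, was called. Over all rows of that fit, 1895 of 22403 had an unadjusted p under 0.05 and 0.152% were called. Of the 50 members, 24 had counts in HFD-LNAME 3 alone.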
